A study of Sus scrofa with 11 samples.

Results

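The glucocorticoid-response genes were examined in full-thickness skin wounds of a diabetic and a non-diabetic Yucatan minipig. The set was fixed by name and holds 10 genes of the 30376 in the expression values: NR3C1, HSD11B1, FKBP5, TSC22D3, PER1, ZBTB16, KLF9, DUSP1, SGK1 and CEBPD. Each symbol matched 1 gene, and all 10 were among the 13956 genes that passed the filter on low values, an FPKM (reads scaled to gene length and to a divisor for each library) of at least 0.5 in at least 4 libraries. RNA came from 7 wounds of a female minipig made diabetic with streptozotocin (STZ), a toxin of the insulin-producing beta cells, and from 4 wounds of an untreated female of the same breed. The diabetic animal was a few months old at STZ infusion and had received insulin until shortly before wounding. All wounds were made with a biopsy punch under isoflurane, dressed alike and collected on day 10. Each group was 1 animal, so p-values measure the spread between wounds of 1 animal, and the effect of diabetes and the difference between the animals cannot be told apart. In bulk tissue, fewer cells of a type and less RNA per cell cannot be told apart either.

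Glucocorticoids such as cortisol enter the cell and bind the glucocorticoid receptor, the product of NR3C1, which is held by heat shock chaperones until the hormone binds. The receptor then moves to the nucleus, binds DNA as a dimer at palindromic elements and raises the transcription of genes such as FKBP5, TSC22D3, PER1, ZBTB16, KLF9, DUSP1 and SGK1. It also lowers the output of inflammatory transcription factors. In skin, the enzyme of HSD11B1 regenerates active cortisol from inert cortisone, and glucocorticoid excess is known for slow wound repair.

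FKBP5, which encodes a co-chaperone that lowers the hormone affinity of the receptor, was the 1 gene of the 10 called higher in diabetic wounds, by 1.45-fold. Of all genes tested, 1.35% were called higher and 1.66% lower. ZBTB16 and PER1 had higher means and KLF9 a lower mean in the diabetic wounds, with unadjusted limma p-values under 0.05 but adjusted ones above it. An unadjusted p under 0.05 was found for 18.4% of the genes tested, and for 4 of the 10. The other 6 genes, the receptor gene among them, were not called, and 5 of these had a log2 fold change within 0.06 of 0.

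The sequences that the receptor could bind in these genes are shown first, since most genes of the set are textbook targets of the receptor. A relaxed receptor element, GNACA followed after 3 bases by TGTNC, was searched in the span of each gene in the RefSeq genome (Sscrofa11.1). This relaxed form was chosen after the expression values were known. The element is a palindrome, so a match on 1 strand is a match on both. It occurred 6 times in FKBP5 and 6 times in ZBTB16, and once in PER1. NR3C1 held 2, HSD11B1 held 1 and SGK1 held 3 matches, while TSC22D3, KLF9, DUSP1 and CEBPD held 0. Per 100 kb of gene span, FKBP5 had 5.51 matches, PER1 6.73, ZBTB16 3.0, SGK1 2.35, HSD11B1 2.13 and NR3C1 1.5, against 1.35 over the spans of all 19551 protein-coding genes on chromosomes, of which 35.0% held at least 1. The PER1 value rests on a single match in 14.9 kb. At the rate over all genes, short spans hold few matches, so a count of 0 does not set those genes apart. Sequence beyond the gene spans was not searched for the relaxed form. FKBP5, PER1 and ZBTB16 were picked for display with their expression values known. The matches in NR3C1 and HSD11B1 lay in introns, and so did those in SGK1 except 1 in a coding exon. The share in introns over all genes was not counted. All 13 matches in FKBP5, PER1 and ZBTB16 also lay in introns. They are printed on the strand of the gene with 15 bases on either side, and capitals mark the element.
FKBP5 intron, chr7:31549350-31549392, strand minus, 1327 bases after the start: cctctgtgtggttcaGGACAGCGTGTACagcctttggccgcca
FKBP5 intron, chr7:31533974-31534016, strand minus, 16703 bases after the start: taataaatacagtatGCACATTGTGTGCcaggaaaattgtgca
FKBP5 intron, chr7:31513955-31513997, strand minus, 36722 bases after the start: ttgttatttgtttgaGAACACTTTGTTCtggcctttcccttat
FKBP5 intron, chr7:31473573-31473615, strand minus, 77104 bases after the start: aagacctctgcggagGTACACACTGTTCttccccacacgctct
FKBP5 intron, chr7:31467776-31467818, strand minus, 82901 bases after the start: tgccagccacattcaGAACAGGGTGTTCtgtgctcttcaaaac
FKBP5 intron, chr7:31452972-31453014, strand minus, 97705 bases after the start: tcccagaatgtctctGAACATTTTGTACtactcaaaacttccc
PER1 intron, chr12:53374396-53374438, strand minus, 2300 bases after the start: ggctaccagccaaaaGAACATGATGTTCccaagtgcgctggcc
ZBTB16 intron, chr9:41731809-41731851, strand plus, 92288 bases after the start: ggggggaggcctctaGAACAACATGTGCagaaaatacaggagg
ZBTB16 intron, chr9:41741851-41741893, strand plus, 102330 bases after the start: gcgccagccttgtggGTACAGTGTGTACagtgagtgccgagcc
ZBTB16 intron, chr9:41744489-41744531, strand plus, 104968 bases after the start: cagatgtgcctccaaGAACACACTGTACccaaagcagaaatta
ZBTB16 intron, chr9:41745594-41745636, strand plus, 106073 bases after the start: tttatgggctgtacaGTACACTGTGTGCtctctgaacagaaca
ZBTB16 intron, chr9:41755780-41755822, strand plus, 116259 bases after the start: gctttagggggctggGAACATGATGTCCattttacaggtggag
ZBTB16 intron, chr9:41803833-41803875, strand plus, 164312 bases after the start: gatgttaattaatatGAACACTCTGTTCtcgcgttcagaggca
Distances were measured from the annotated 5′ end of the gene. A match describes the letters only, and receptor binding was not measured.

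**Figure D1:**
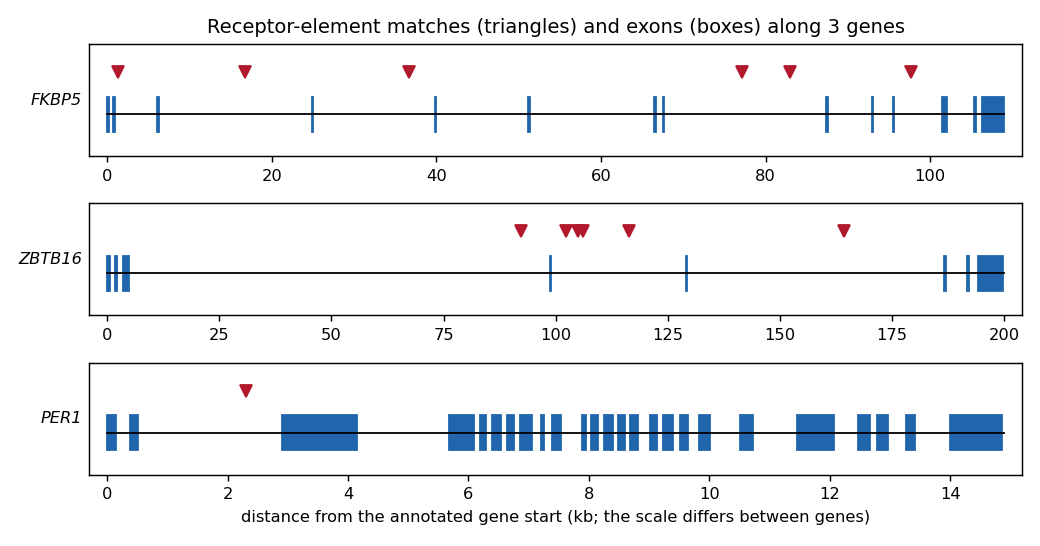
Distance from the annotated gene start (x axis, kb) for FKBP5, ZBTB16 and PER1, with boxes for annotated exons and triangles for matches of the relaxed receptor element. The 6 matches in FKBP5 lie between 1.33 and 97.7 kb from its start, 5 of the 6 in ZBTB16 lie between 92.3 and 116 kb from its start, and the match in PER1 lies 2.3 kb from its start.

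Windows of 250 bases before and 50 bases after the gene start were searched as promoters for 4 exact motifs on both strands. Over the 19551 promoters, the full palindrome (AGAACA, 3 bases, TGTTCT) was found in 0.00511%, its inner core (ACA, 3 bases, TGT) in 4.56%, the E-box CACGTG in 7.92% and the cyclic AMP element TGACGTCA in 2.26%. The core lies inside both the full palindrome and the relaxed element. None of the 10 windows held the palindrome or the core. Each gene was searched only at its outermost annotated start, and other starts were not searched. NR3C1 has 12 annotated start sites, FKBP5 has 9, and HSD11B1 and SGK1 have 5 each. The E-box, the element of the CLOCK and BMAL1 clock proteins, was present in 4 of the 10, NR3C1, FKBP5, PER1 and DUSP1, and the cyclic AMP element in DUSP1. The promoters of FKBP5 and PER1 are shown because both hold an E-box and are described in most detail below. They cover 250 bases before the start, in Sscrofa11.1, and capitals mark the E-box.
FKBP5, chr7:31550705-31550954, strand minus: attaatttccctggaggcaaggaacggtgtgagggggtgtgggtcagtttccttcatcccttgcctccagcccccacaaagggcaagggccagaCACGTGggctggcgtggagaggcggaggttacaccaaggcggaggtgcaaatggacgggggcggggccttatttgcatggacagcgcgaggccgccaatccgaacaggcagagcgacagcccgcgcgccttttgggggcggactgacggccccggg
PER1, chr12:53376724-53376973, strand minus: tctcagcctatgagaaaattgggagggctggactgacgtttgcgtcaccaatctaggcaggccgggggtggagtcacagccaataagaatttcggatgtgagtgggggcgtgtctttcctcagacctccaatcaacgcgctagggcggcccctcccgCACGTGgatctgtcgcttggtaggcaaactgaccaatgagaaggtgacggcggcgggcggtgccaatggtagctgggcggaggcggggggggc
The E-box began 156 bases before the start of FKBP5 and 93 bases before that of PER1. KLF9 is annotated by its coding exons alone, so its window does not lie at a known transcription start.

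Depth ranged from 28314785 to 40168372 reads on genes in the 7 diabetic libraries and from 32961018 to 36872400 in the other 4. Within the set, the lowest number of reads behind a value was 68, for KLF9 in 1 diabetic wound. Keratinocyte markers set 2 wounds apart, with a summed level of 52.2 FPKM in diabetic replicate 4 and 308 FPKM in non-diabetic replicate 1, against 1760.0 to 7010.0 FPKM in the other 9. Over all genes tested, 1.35% were called higher in diabetic wounds and 1.66% lower. Of 10 macrophage markers 3 were called higher in diabetic wounds, with a summed level of 559 to 1240.0 FPKM against 358 to 676 FPKM, and of 6 tested B and plasma cell markers 4 were called higher, with 185 to 267 FPKM against 156 to 199 FPKM. CD79B, among these 4, passed the filter only through the diabetic wounds, at 0.504 FPKM or more against at most 0.413 FPKM. Its call and the filter are therefore not independent. Of 8 adipocyte markers 2, LEP and LPL, were called lower, with a median log2 fold change of -0.99 for the list and a summed level of 300.0 to 895 FPKM against 333 to 538 FPKM. LEP passed the filter only through the non-diabetic wounds, at 0.579 FPKM or more against at most 0.407 FPKM, so its call and the filter are not independent. FABP4, the most abundant of the list, was the 1 marker with a higher estimate. It had 403 ± 126 and 210 ± 58.6 FPKM (0.92 on the log2 scale, limma adjusted p = 0.0607). Skeletal muscle markers summed to 1810.0 FPKM in diabetic replicate 3 and to at most 2.21 FPKM in any other wound. No defining marker of these 5 lists was at 0 in every wound. The part of these cells in the results below was not tested. Library names begin with L or R, and the comparison was repeated within each letter.

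Among the genes that make and receive the signal, the receptor gene NR3C1 (chromosome 2, 144822937 to 144956451) had a level of 3.24, 3.94 and 4.69 FPKM as the lowest, median and highest of the 7 diabetic wounds. In the non-diabetic wounds, replicates 1 to 4 had 4.18, 2.88, 4.21 and 4.25 FPKM. The groups overlapped, and non-diabetic replicate 2 was the lowest of all 11 wounds. The means were 3.88 ± 0.527 FPKM (SD, n = 7) and 3.88 ± 0.666 FPKM (SD, n = 4). The log2 fold change, diabetic minus non-diabetic and on the scale of log2(FPKM + 0.5) throughout, had a 95% interval from -0.28 to 0.28 (adjusted p = 0.991, limma).

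HSD11B1 (chromosome 9, 133231451 to 133278396), the cortisone-activating reductase gene, ranged from 12.8 to 27.5 FPKM in diabetic wounds, with a median of 17.4 FPKM, and stood at 8.66, 17.5, 12 and 19.5 FPKM in the non-diabetic wounds. Only 2 diabetic wounds, replicates 2 and 3, lay above the highest non-diabetic wound. Its log2 fold change of 0.37 (standard error 0.25, 95% interval -0.17 to 0.91) did not pass the test (adjusted p = 0.477, limma). Within L-named wounds the log2 fold change was 0.83 and within R-named wounds -0.02, a difference that did not pass the test either (adjusted p = 0.215, limma interaction).

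The steroid supply list held the other genes of glucocorticoid synthesis, activation and breakdown. Of its 16 genes, 14 were found and 5 were tested, and 0 were called by limma (2 at an unadjusted p under 0.05) or by voom on the recovered reads. H6PD, which encodes the enzyme that supplies HSD11B1 with NADPH, averaged 6.6 ± 1.42 FPKM (SD, n = 7) in the diabetic animal against 4.72 ± 0.983 FPKM (SD, n = 4) (0.44 on the log2 scale, limma adjusted p = 0.216). HSD11B2, the cortisol-inactivating enzyme gene, had 0.629 ± 0.303 and 0.483 ± 0.364 FPKM. SRD5A1, a steroid 5-alpha-reductase gene and the most abundant of the list, had 9.94 and 9.89 FPKM. Of the genes of the adrenal synthesis steps, CYP11B1 was not found. CYP11A1, CYP17A1 and CYP21A2 averaged 0.0542, 0.00259 and 0.00485 FPKM in diabetic and 0.0644, 0.0115 and 0.0104 FPKM in non-diabetic wounds. HSD3B1 had 0.794 ± 1.16 and 0.232 ± 0.114 FPKM, with up to 3.34 FPKM in a diabetic wound. STAR had 0.207 ± 0.0786 and 0.537 ± 0.689 FPKM, with up to 1.56 FPKM in a non-diabetic wound. None of these genes passed the filter. The mineralocorticoid receptor gene NR3C2, whose product also binds cortisol, averaged 0.292 and 0.388 FPKM in the groups and did not pass it either. Of 15 tested genes of receptor chaperones and coregulators, 0 were called by limma or by voom, and 0 had an unadjusted p under 0.05. HSPA8, the most abundant, had 386 ± 168 and 353 ± 54.3 FPKM. FKBP4, the co-chaperone gene whose product competes with that of FKBP5, had 47.8 ± 15.3 and 39.2 ± 6.17 FPKM (0.23 on the log2 scale, limma adjusted p = 0.654).

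FKBP5 (chromosome 7, 31441764 to 31550704) had 11.2, 13.1 and 15.2 FPKM as the lowest, median and highest level in diabetic wounds. The non-diabetic wounds had 8.62, 7.74, 8.72 and 9.62 FPKM. Every diabetic wound lay above every non-diabetic wound. In 2.69% of the genes tested every diabetic wound lay above every non-diabetic wound, in 2.96% every one lay below, and limma called 1.35% higher and 1.66% lower. The means were 12.9 ± 1.52 FPKM (SD, n = 7) and 8.68 ± 0.768 FPKM (SD, n = 4), a log2 fold change of 0.54 (standard error 0.10, 95% interval 0.31 to 0.76, adjusted p = 0.0164, limma). The two-sided exact permutation test gave p = 0.00303, the smallest that the 330 splits of 7 and 4 wounds allow, and 18.1% of the genes tested had a p under 0.05 by it. Its levels within the letters were 13.4 to 15.2 against 7.74 to 8.62 FPKM in L-named and 11.2 to 13.1 against 8.72 to 9.62 FPKM in R-named wounds. On the log2 scale the difference was 0.76 in the former and 0.35 in the latter (adjusted p = 0.108 for the difference, limma interaction). The call was lost without diabetic replicate 2 (log2 fold change 0.50, rounded up from below the threshold, adjusted p = 0.0218), without non-diabetic replicate 1 (log2 fold change 0.54, adjusted p = 0.0551), replicate 2 (log2 fold change 0.49, adjusted p = 0.0565) or replicate 3 (log2 fold change 0.54, adjusted p = 0.0518, all limma). Without diabetic replicate 4 and non-diabetic replicate 1, the wounds with few keratinocyte transcripts, it was 0.53 and not called (adjusted p = 0.0782, limma).

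**Figure D2:**
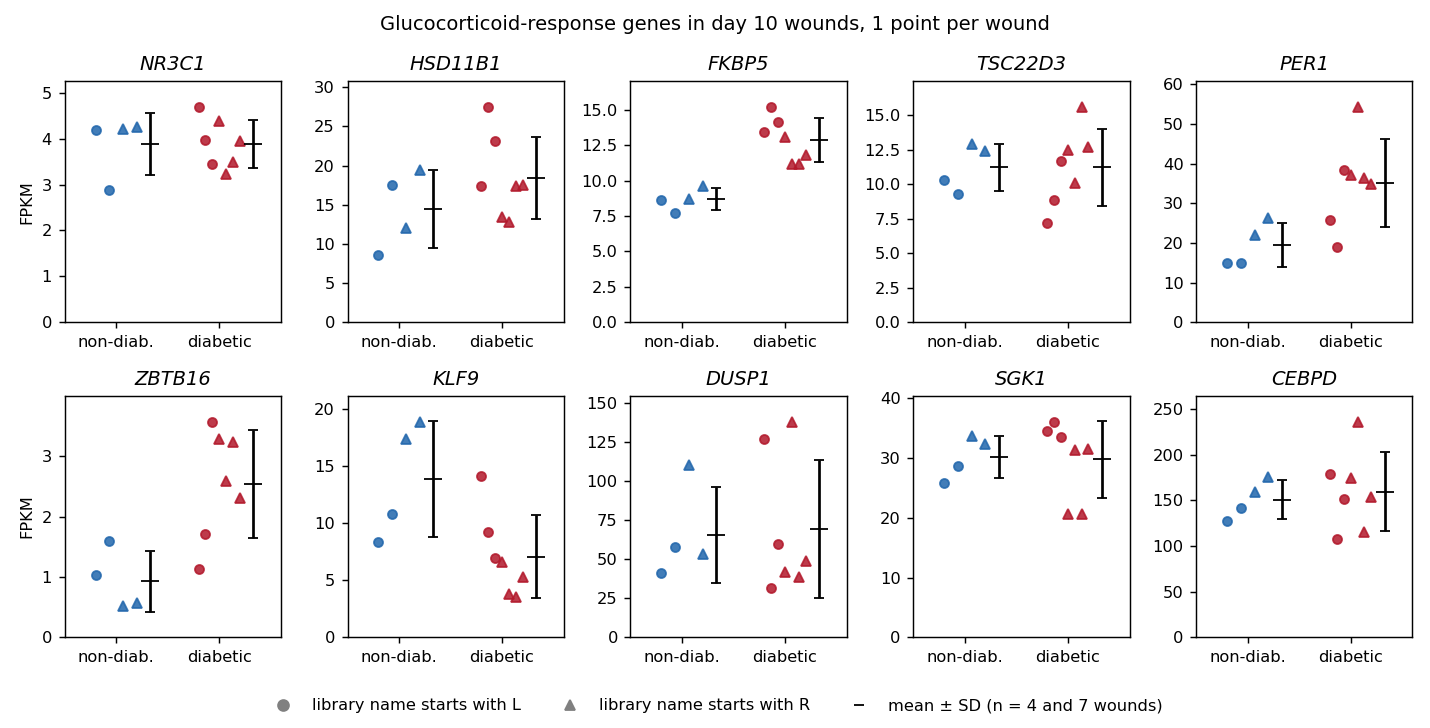
FPKM (y axis, linear from 0) of the 10 genes in each wound, with circles for L-named and triangles for R-named libraries and a bar for the mean and SD of each group. The groups are separate in FKBP5, from 11.2 to 15.2 FPKM in diabetic against 7.74 to 9.62 FPKM in non-diabetic wounds, and overlap in the other 9 genes.

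ZBTB16 (chromosome 9, 41639536 to 41839254) encodes PLZF, a zinc finger repressor that rises steeply with glucocorticoids in many cells. Its level was the lowest of the set, with 1.13, 2.59 and 3.57 FPKM as the lowest, median and highest in diabetic wounds against 1.03, 1.6, 0.513 and 0.572 FPKM in the non-diabetic wounds. Of the 7 diabetic wounds 6 lay above every non-diabetic wound, and diabetic replicate 1 fell within their range. The means were 2.54 ± 0.896 FPKM (SD, n = 7) and 0.928 ± 0.504 FPKM (SD, n = 4). The log2 fold change of 1.09 (standard error 0.28, 95% interval 0.49 to 1.70) missed the threshold (adjusted p = 0.0545, limma). It equals a 2.13-fold difference in FPKM + 0.5, not in FPKM. The two-sided exact permutation test gave p = 0.00909. The log2 fold change was 1.67 in R-named and 0.45 in L-named wounds (adjusted p = 0.111 for the difference, limma interaction). The call was gained without diabetic replicate 1 (log2 fold change 1.23, adjusted p = 0.0199) and without non-diabetic replicate 2 (log2 fold change 1.30, adjusted p = 0.0463, both limma). The value moved with the scale, from 0.87 with a pseudocount of 1 to 1.54 with voom on the recovered reads.

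PER1 (chromosome 12, 53361863 to 53376723), a repressor of the circadian clock and a direct receptor target, had 19.0, 36.3 and 54.3 FPKM as the lowest, median and highest in diabetic wounds and 15, 14.9, 22.1 and 26.2 FPKM in non-diabetic wounds. Diabetic replicates 1 and 2 lay within the non-diabetic range and the other 5 above it. The means were 35.1 ± 11 FPKM (SD, n = 7) and 19.5 ± 5.57 FPKM (SD, n = 4), and the log2 fold change was 0.81 (standard error 0.25, 95% interval 0.25 to 1.37, adjusted p = 0.110, limma; p = 0.0273, two-sided exact permutation test). The mean of R-named and of L-named wounds was 40.6 and 27.8 FPKM in the diabetic animal and 24.1 and 14.9 FPKM in the non-diabetic one. The log2 fold change was 0.82 in L-named and 0.72 in R-named wounds (adjusted p = 0.885 for the difference, limma interaction). Without diabetic replicate 2, PER1 was called (0.94 on the log2 scale, limma adjusted p = 0.0363). Without diabetic replicate 4 and non-diabetic replicate 1 it was 0.68, with p = 0.0952 by the exact permutation test.

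Since PER1 is also a clock gene, the other clock genes are set beside it. All 18 clock genes of the list were found and tested, with BMAL1 under its older symbol ARNTL, and 0 were called by limma (2 at an unadjusted p under 0.05) or by voom, with a median log2 fold change of -0.05 against 0.01 over all genes tested. PER2, the paralogue of PER1 and likewise a receptor target, had 3.71 ± 0.723 FPKM (SD, n = 7) and 3.76 ± 0.733 FPKM (SD, n = 4), and PER3 had 2.21 ± 0.465 and 2.42 ± 0.482 FPKM. CRY2, a partner of the PER proteins, had the largest difference of the list upward, with 6.73 ± 1.68 and 4.09 ± 0.217 FPKM (0.62 on the log2 scale, limma adjusted p = 0.0907). ARNTL had 2.34 ± 0.645 and 3.37 ± 0.311 FPKM (-0.47 on the log2 scale, limma adjusted p = 0.118). BHLHE40, the most abundant of the list, had 42.4 and 57.2 FPKM (adjusted p = 0.624, limma).

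KLF9 (chromosome 1, 223723613 to 223747661), a transcription factor gene that glucocorticoids induce in keratinocytes, had the lower mean in the diabetic animal. Its level was 3.54, 6.63 and 14.1 FPKM as the lowest, median and highest in diabetic wounds and 8.35, 10.8, 17.4 and 18.9 FPKM in non-diabetic wounds. Of the diabetic wounds 5 lay below every non-diabetic wound, and replicates 1 and 2 lay within their range. The log2 fold change was -0.98 (standard error 0.35, 95% interval -1.74 to -0.22, adjusted p = 0.154, limma; p = 0.0364, two-sided exact permutation test). With 1 wound left out, the p of the exact permutation test ran from 0.0143 without diabetic replicate 1 to 0.108 without non-diabetic replicate 4. The gene model used for counting was 732 bases long, the length of its coding sequence, so reads from its untranslated ends were not counted and 68 to 538 reads lay behind each value.

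The difference in KLF9 was not the same within the letters. L-named wounds had 6.95 to 14.1 FPKM in the diabetic and 8.35 to 10.8 FPKM in the non-diabetic animal, a log2 fold change of 0.03 (standard error 0.31). R-named wounds had 3.54 to 6.63 FPKM and 17.4 to 18.9 FPKM, a log2 fold change of -1.85 (standard error 0.29). The change between the letters was -1.88 (standard error 0.42, adjusted p = 0.0421, limma interaction), and 6.46% of the genes tested passed the same threshold. The direction of the pooled value thus rested on the R-named wounds, 4 diabetic and 2 non-diabetic. The meaning of the letters is not stated in the labels. With library weights, which give wounds far from their group less influence, KLF9 was called lower, and ZBTB16 and PER1 were called higher beside FKBP5. These weights called 2.91% of the genes tested higher and 2.98% lower.

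**Figure D3:**
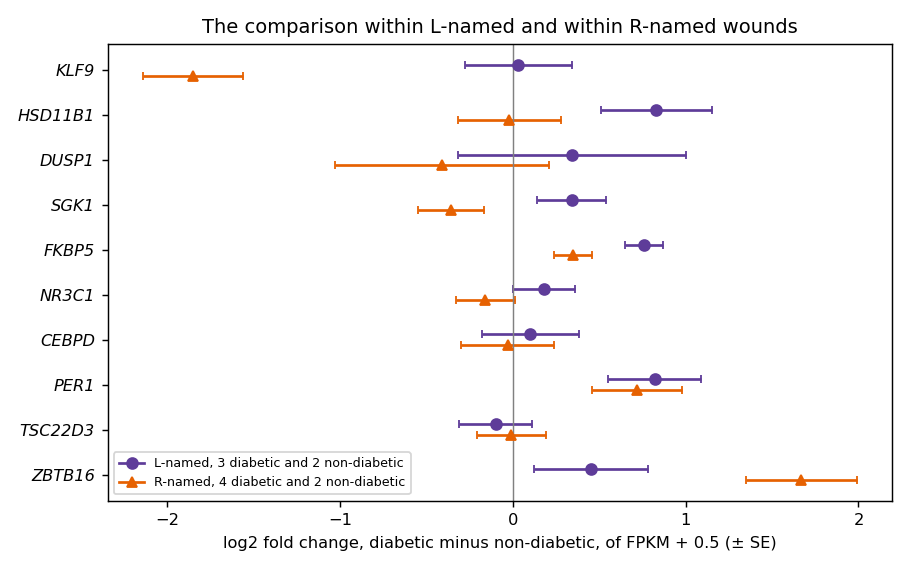
Log2 fold change (x axis, diabetic minus non-diabetic, log2(FPKM + 0.5) scale, bars of 1 standard error) of the 10 genes in L-named wounds (circles) and R-named wounds (triangles). The estimates for KLF9 are 0.03 and -1.85, and those for PER1 are 0.82 and 0.72.

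TSC22D3 (chromosome X, 88171325 to 88233583) encodes GILZ, an anti-inflammatory mediator and one of the most widely used reporters of receptor activity. Its level ran from 7.18 to 15.6 FPKM in diabetic wounds, with a median of 11.7 FPKM, and was 10.3, 9.29, 12.9 and 12.4 FPKM in non-diabetic wounds. The non-diabetic range lay inside the diabetic one. The log2 fold change was -0.02 (standard error 0.18, 95% interval -0.43 to 0.38, adjusted p = 0.964, limma). R-named wounds of both animals averaged 12.7 FPKM and L-named wounds 9.23 FPKM in the diabetic and 9.78 FPKM in the non-diabetic animal.

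SGK1 (chromosome 1, 29625786 to 29753619), the serum- and glucocorticoid-regulated kinase gene, had 20.6, 31.6 and 36.1 FPKM as the lowest, median and highest in diabetic wounds and 25.9, 28.7, 33.7 and 32.3 FPKM in non-diabetic wounds. Diabetic replicates 4 and 6 lay below the other 9 wounds. On the log2 scale the animals differed by -0.04 (standard error 0.17, 95% interval -0.42 to 0.33, adjusted p = 0.929, limma). Within the letters it was 0.34 in L-named and -0.36 in R-named wounds (adjusted p = 0.117 for the difference, limma interaction).

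DUSP1 and CEBPD respond to stress and cytokine signals as well as to glucocorticoids. DUSP1 (chromosome 16, 51457924 to 51461095), the gene of a phosphatase that shuts off MAP kinases, had the widest spread of the set, with 31.5, 48.9 and 138 FPKM as the lowest, median and highest in diabetic wounds and 41.1, 57.8, 110.0 and 53.0 FPKM in non-diabetic wounds. Diabetic replicates 1 and 5 were the high ones, and non-diabetic replicate 3 came next. The 95% interval of its log2 fold change ran from -0.98 to 0.90 (estimate -0.04, adjusted p = 0.973, limma), so differences as large as its ends were not excluded by these wounds. CEBPD (chromosome 4, 79872863 to 79874481), a transcription factor gene of the acute phase response and the most abundant of the set, had 108, 154 and 236 FPKM as the lowest, median and highest in diabetic wounds and 127, 141, 159 and 176 FPKM in non-diabetic wounds. The non-diabetic range again lay inside the diabetic one, with a log2 fold change of 0.05 (standard error 0.19, 95% interval -0.38 to 0.48, adjusted p = 0.927, limma).

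**Figure D4:**
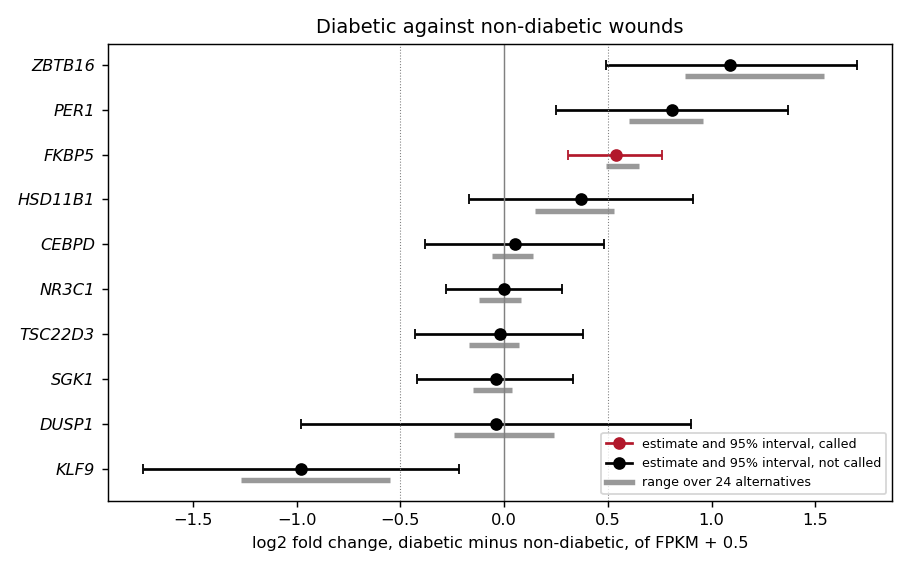
Log2 fold change (x axis, diabetic minus non-diabetic, log2(FPKM + 0.5) scale) of the 10 genes with the 95% interval of limma, red where called, and a grey bar for the range over the 24 alternative settings. FKBP5 has an interval of 0.31 to 0.76, and the intervals of HSD11B1, CEBPD, NR3C1, TSC22D3, SGK1 and DUSP1 include 0.

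Of 40 other genes widely described as glucocorticoid-induced, 39 were found and 37 tested, 2 were called higher and 0 lower, beside 1.35% and 1.66% of all genes tested, and 7 had an unadjusted limma p under 0.05. The median log2 fold change was 0.10. ANGPTL4, which encodes an inhibitor of lipoprotein lipase and is also a target of the fatty acid receptors of the PPAR family, averaged 120.0 ± 26.8 FPKM (SD, n = 7) against 20.0 ± 7.21 FPKM (SD, n = 4) (2.58 with a standard error of 0.25 on the log2 scale, limma adjusted p = 0.000338). TXNIP, the gene of a thioredoxin-binding protein that glucose also induces, had 169 ± 49.5 and 88.3 ± 14.9 FPKM (0.90 with a standard error of 0.21 on the log2 scale, limma adjusted p = 0.0388). The groups were separate in both genes. ANXA1, the most abundant of the list and the gene of an anti-inflammatory phospholipid-binding protein, had 412 ± 223 and 306 ± 79.4 FPKM (adjusted p = 0.731, limma). PDK4, a pyruvate dehydrogenase kinase gene, had 8.78 ± 5.74 and 2.62 ± 1.70 FPKM (1.59 on the log2 scale, limma adjusted p = 0.0925). KLF15, a transcription factor gene that the receptor induces in muscle and fat, had 0.664 ± 0.258 and 1.19 ± 0.199 FPKM (-0.56 on the log2 scale, limma adjusted p = 0.108), and FBXO32, a ubiquitin ligase gene of muscle wasting, had 1.73 ± 0.626 and 4.11 ± 1.97 FPKM (-1.0 on the log2 scale, limma adjusted p = 0.0712).

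Of 21 genes widely described as glucocorticoid-repressed, all were found and 19 tested, and 0 were called by limma (2 at an unadjusted p under 0.05) or by voom, with a median log2 fold change of 0.13. VCAM1, a leukocyte adhesion molecule gene, was higher in every diabetic wound, with 51.3 ± 6.23 and 37.8 ± 4.17 FPKM, and had an adjusted p of 0.0482 (limma), but its log2 fold change of 0.43 was under the threshold. IL6 had 24.3 ± 27.8 and 22.1 ± 18.9 FPKM and CXCL8 had 27.5 ± 42.4 and 7.95 ± 7.46 FPKM, with SDs as large as the means or nearly so. The collagen genes COL3A1, the most abundant of the list over the 11 wounds, and COL1A1 had 12600.0 and 13100.0 FPKM in diabetic and 14800.0 and 13300.0 FPKM in non-diabetic wounds. Of 16 immediate early genes tested, which rise with tissue handling as well as with growth signals, 0 were called by limma (4 at an unadjusted p under 0.05) or by voom, and the median log2 fold change was -0.07. JUN, the most abundant over the 11 wounds, had 52.0 ± 13.7 and 84.1 ± 20.4 FPKM (-0.70 on the log2 scale, limma adjusted p = 0.129).

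**Figure D5:**
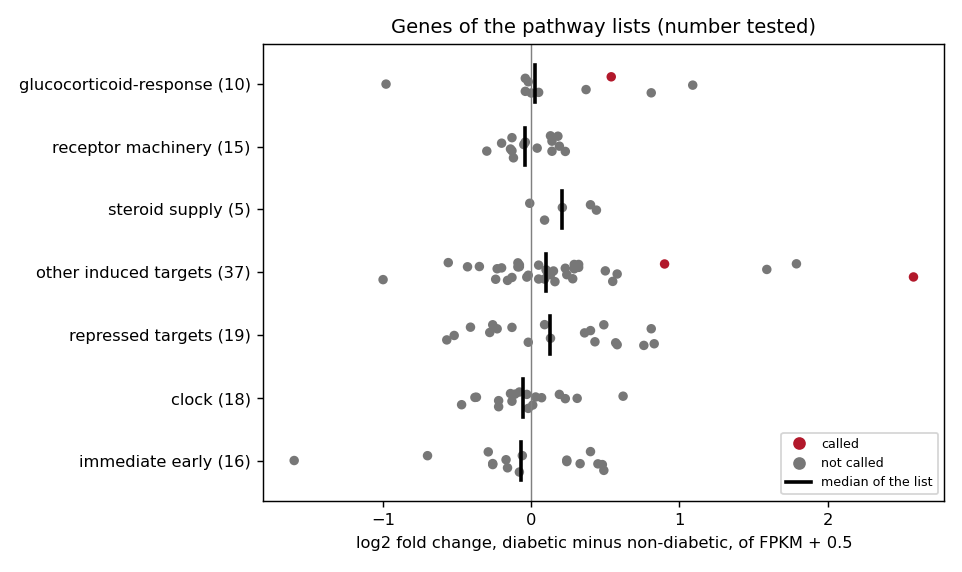
Log2 fold change (x axis, diabetic minus non-diabetic, log2(FPKM + 0.5) scale) of each tested gene in the glucocorticoid-response set and 6 related lists, red where called, with a black bar for the median. The called genes are FKBP5, ANGPTL4 and TXNIP, and the list medians lie between -0.07 and 0.21.

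The genes varied in different directions from wound to wound. With the mean of each group taken out, the correlation of log2 levels over the 11 wounds was 0.77 between DUSP1 and CEBPD, 0.74 between FKBP5 and KLF9, 0.71 between PER1 and CEBPD and -0.73 between ZBTB16 and KLF9. TSC22D3 and FKBP5, both reporters of the receptor, had -0.28, and PER1 and FKBP5 -0.36. These values share libraries, depth and tissue composition and are descriptions. Within the 7 diabetic wounds, 6 of the 45 pairs had an unadjusted p under 0.05 and 0 an adjusted p under 0.05 (exact permutation test, smallest adjusted p = 0.260). The pair with the smallest p was TSC22D3 and ZBTB16 (r = 0.85, p = 0.0153; rho = 0.57, p = 0.200, exact permutation, n = 7), with r = 0.67 without the 2 wounds farthest from the median of TSC22D3. DUSP1 and CEBPD came next (r = 0.83, p = 0.0216; rho = 0.86, p = 0.0238, exact permutation, n = 7), with r = 0.67 without the 2 wounds farthest in DUSP1.

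Over all genes tested and by the same correlation within groups over 11 wounds, the genes most like DUSP1 were ERRFI1 (0.98), COQ10B (0.97) and FOS (0.96), of which ERRFI1 encodes an inhibitor of the EGF receptor and FOS is an immediate early gene. KLF9 was most like JADE3 (0.99), DNA2 (0.98) and ABCC4 (0.98), and CEBPD most like TNFAIP6 (0.94), TGIF1 (0.94) and CASP10 (0.93). FKBP5 was most like NXT2 (0.95), MSANTD4 (0.95) and MYCBP (0.93), and ZBTB16 most like ACADS (0.96), RNASE4 (0.96) and DAG1 (0.95). For PER1 the values were LMO4 (0.91), GZMA (0.89) and LOC396781 (0.88). NR3C1 was nearest to LOC110261657 (0.94), MLLT10 (0.94) and ATM (0.92), HSD11B1 to LOC110260349 (0.94), RMDN1 (0.93) and FOXM1 (0.93), and SGK1 to NDUFA9 (0.94), UBE2J1 (0.93) and PPP2R3A (0.93). No other gene of the set was among the 3 nearest to any of its 10 genes.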

How the data were processed

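Polyadenylated RNA of 11 wounds, 1 library each, was sequenced as stranded libraries. According to the methods and the submitters' processing notes, reads were cleaned (fastp), aligned by HISAT2 (version 2.2.1) to the Sscrofa11.1 pig genome, assembled by StringTie (version 2.2.3) and counted by featureCounts (version 2.0.6). The values the authors deposited are FPKM per gene and library, and the annotation release and formula are not given in the sources used here. FPKM times gene length came in steps of 1 read, and 100.0% of values below 10000 reads were whole to within 0.05 reads, which gave the depths. The divisor of each library was 0.8538 to 1.1776 times its reads on genes, so the values were not scaled by that depth alone. Relative to a size factor from the median ratio of reads across genes, the divisor was 0.9848 to 0.9944. Gene identifiers were those of the RefSeq annotation (30335 of 30376 found, same start for 100.0%).

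Log2(FPKM + 0.5) of 13956 genes was compared with limma (version 3.58.1, R 4.3.3; lmFit, eBayes with trend) in place of the count test of the study, since the deposited unit is FPKM. A gene was called at a Benjamini-Hochberg adjusted p under 0.05 over all genes tested and an absolute log2 fold change of at least 0.5. Single genes were also tested by a two-sided exact permutation test. The replicate numbers come from the labels. The test was checked on simulated data. Alternatives changed the pseudocount, filter, scaling, spread estimate, weights, block, covariate, test and wounds. The interaction with the letter, the permutation test on linear FPKM and the relaxed element were added after the data were seen.

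The genes, lists and tests were chosen with earlier results of these data known. Named were the 10 genes, called and most abundant genes of each list, and the 3 nearest genes, which for TSC22D3 are not reported here. H6PD, HSD11B2, CYP11A1, CYP17A1, CYP21A2, HSD3B1, STAR, NR3C2, FKBP4, PER2, PER3, CRY2, ARNTL, PDK4, KLF15, FBXO32, VCAM1, POMC, IL6, CXCL8 and COL1A1 were named after their values were seen. Sequences came from the RefSeq genome Sscrofa11.1. Scripts ran under Python (3.11.15) with SciPy (1.17.1), pandas (2.3.3), numpy (2.4.6) and, for plots, matplotlib (3.10.9).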

Additional observations from a re-analysis of the deposited data

Results flagged for a closer look

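NR3C1 in non-diabetic replicate 2, at 2.88 FPKM against 4.18 FPKM in the next wound, stood apart from the other 3 non-diabetic wounds, with a gap of 0.949 of the range of the group. It was the 1 such wound among 20 groups of values examined, and chance sets apart about 1 in 20 groups. Without this wound the log2 fold change of NR3C1 was -0.12.

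The difference between diabetic and non-diabetic wounds in KLF9 was not the same in L-named and R-named wounds, by -1.88 on the log2 scale (adjusted p = 0.0421, limma interaction). All 4 R-named diabetic wounds lay below both R-named non-diabetic wounds, and in L-named wounds the groups overlapped. Of all genes tested, 901 passed the same threshold.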

How the results depend on the processing

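Over 24 alternatives, the log2 fold changes of FKBP5 (0.49 to 0.65), ZBTB16 (0.87 to 1.54), PER1 (0.60 to 0.96), HSD11B1 (0.15 to 0.53) and KLF9 (-1.27 to -0.55) kept their direction. FKBP5 was called in 18, ZBTB16 in 3, PER1 in 2, KLF9 in 1 and the other 6 genes in 0 of 24. With library weights, 406 genes were called higher and 416 lower, against 188 and 231, and in the set 3 genes higher and 1 lower, with KLF9 at -1.27 (adjusted p = 0.0182, limma). Without diabetic replicate 4 and non-diabetic replicate 1, 112 genes were called higher and 100 lower, and 0 of the set (limma; FKBP5, ZBTB16 and KLF9 kept an exact permutation p under 0.05). Leaving out 1 wound at a time gave 110 to 236 genes higher and 99 to 246 lower, 0 to 2 of the set higher, and 2 to 4 of the set with a permutation p under 0.05, the 2 without non-diabetic replicate 2. Beside 1.35% and 1.66% of all genes tested, the 6 related lists together had 2 genes called higher and 0 lower. That number was 1 with no filter, quantile normalization, median scaling or the letter as covariate, 5 higher (H6PD, POMC and CRY2 added) and 2 lower (ARNTL and FBXO32) with library weights, and 1 to 3 higher and 0 to 1 lower with 1 wound left out. Blocking on the replicate number left 11 genes higher and 5 lower, with 0 of the set and 0 of the lists (FKBP5 0.65, adjusted p = 0.275, limma). Replicates 5 to 7 are diabetic only, so the blocked difference rests on replicates 1 to 4 of each group. The replicate numbers did not pair the wounds, since the deviations of same-numbered wounds from their group means correlated at -0.267, 0.215, 0.068 and -0.483. The cause of these changes was not tested. The values of the set rested on at least 68 reads each, and the effect of depth was not tested.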
